A study of Caenorhabditis elegans with 12 samples.

Results

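Small RNA reads were followed at 10 Caenorhabditis elegans genes for the main structural proteins of the sarcomere: the actin genes act-1, act-2, act-3 and act-4, the muscle myosin heavy chain genes myo-1, myo-2, myo-3 and unc-54, and unc-89 and ttn-1, which encode giant proteins of muscle. The genes were picked by name, with earlier results of these data known, from a table of 46726 genes. All were found there, myo-1 under the annotation's identifier, since the one first listed for it was absent. All 10 had reads in every group, with a lowest count of 42. The RNA came from adult whole animals grown at 20 °C and fed bacteria that make 1 of 2 double-stranded RNAs (dsRNA): dsRNA of oma-1, a gene of maturing oocytes, or dsRNA of L4440, the empty vector. Control animals (YY1312), called wild-type in the sample titles, carried hrde-1(gg594), and mutants (YY1192) carried hrde-1(gg594) together with hrde-2(gg517). The labels do not say what either allele changes. The 12 samples were 3 each of L4440-fed controls, oma-1-fed controls, L4440-fed mutants and oma-1-fed mutants, where mutant and hrde-2 mean the strain with both alleles.

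Muscle contracts as myosin heads on thick filaments pull on actin thin filaments, while giant proteins built of immunoglobulin-like domains hold the filaments in register. In C. elegans the body wall muscles and the pharynx use different myosin heavy chains, and the actin genes encode nearly identical proteins. Worm genes, muscle genes among them, are also templates for antisense small RNAs of the 22G class, which RNA-dependent RNA polymerases make on messenger RNA and which carry a 5′ triphosphate. The cloning used here takes such RNAs in, because it does not depend on a 5′ monophosphate. HRDE-1 is a germline nuclear Argonaute that binds 22G RNAs. Whether a counted read was antisense to a gene or a fragment of its own messenger RNA cannot be told from the counts, since the strand setting is not given.

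Each group was given as 1 pooled column of counts, so that no spread between the samples of a group could be measured. Reads assigned to genes numbered 16057238 to 39077097 per group, and ambiguous reads, not used here, made up 40.4 to 42.4% of all reads listed. Levels are CPM, read counts scaled to a common library size, on libraries scaled by the trimmed mean of M values (TMM). Intervals are 95% ones for counting error alone, which PCR copies of a molecule make too narrow. The TMM scale of L4440-fed mutants was 4.08 times that of L4440-fed controls, while the gene-assigned total was 1.54 times, so that any genotype ratio depends on the scaling. On the log2 scale the median protein-coding gene differed between genotypes by −0.36 on L4440 and −0.27 on oma-1 dsRNA under TMM, but by 1.26 and 0.99 under library totals. Differences are therefore also given from the median gene, meaning the median of the protein-coding genes compared, which reached 5 CPM or more in the higher group. In bulk RNA of whole animals, fewer cells of a type and less RNA per cell cannot be told apart.

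Per length of exon, the 4 actin genes carried the highest levels of the 10 genes and the giant protein genes were among the lowest. The actins form the thin filament. The genes act-1 (WBGene00000063), act-2 (WBGene00000064) and act-3 (WBGene00000065) lie close together on chromosome V (build WBcel235): act-1 at 11081052 to 11082415 on the plus strand, act-2 at 11076777 to 11078154 on the minus strand and act-3 at 11071690 to 11074498 on the minus strand. The fourth, act-4 (WBGene00000066), lies on chromosome X at 4960621 to 4964413 on the plus strand. Reads at act-1 numbered 383 in L4440-fed controls, 403 in oma-1-fed controls, 1123 in L4440-fed mutants and 392 in oma-1-fed mutants, and the same order of groups holds for the counts that follow. In CPM the act-1 level was 23.4 (21.1 to 25.9), 17.7 (16.004 to 19.5), 16.8 (15.9 to 17.9) and 17.97 (16.2 to 19.8). The level of act-1 thus stood highest in L4440-fed controls, and the other 3 groups overlapped in their counting intervals.

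Reads at act-2 numbered 432, 451, 1107 and 404, which gave 26.4, 19.8, 16.6 and 18.5 CPM. At act-3 there were 318, 320, 938 and 335 reads, or 19.4, 14.05, 14.07 and 15.4 CPM. At both genes L4440-fed controls stood above the other groups, as at act-1. At act-2, L4440-fed mutants also lay below oma-1-fed controls with no overlap of their intervals. By contrast act-4, with 207, 246, 959 and 330 reads or 12.7, 10.8, 14.4 and 15.1 CPM, stood higher in both hrde-2 groups than in oma-1-fed controls. Because the coding sequences of the actin genes are nearly identical and the treatment of reads that match several genes is not given, the division of reads among the 4 is uncertain. No other feature came within 5% or 15 reads, whichever is larger, of an actin in all 4 groups.

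The myosin heavy chains form the thick filament. UNC-54 is the major heavy chain of body wall muscle and MYO-3 the one at the centre of its thick filaments, while MYO-1 and MYO-2 belong to the pharynx. Their genes lie apart: unc-54 (WBGene00006789) on chromosome I at 14855901 to 14863482 (minus strand), myo-3 (WBGene00003515) on chromosome V at 12226817 to 12234343 (minus strand), myo-1 (WBGene00002348) on chromosome I at 7258946 to 7267057 (minus strand) and myo-2 (WBGene00003514) on chromosome X at 12468061 to 12475348 (plus strand). Reads at unc-54 numbered 377, 378, 1677 and 588, at levels of 23.04 CPM (20.8 to 25.5), 16.6 (14.96 to 18.4), 25.2 (23.97 to 26.4) and 26.95 (24.8 to 29.2). Control on oma-1 dsRNA was the low group for unc-54, below the intervals of the other 3.

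At myo-3 the counts were 97, 99, 471 and 177, or 5.93, 4.35, 7.06 and 8.11 CPM. The pharyngeal genes had the fewest reads of the 10, with 52, 42, 207 and 75 at myo-1 (3.18, 1.84, 3.10 and 3.44 CPM) and 50, 68, 227 and 97 at myo-2 (3.06, 2.98, 3.40 and 4.45 CPM). Neither pharyngeal gene reached 5 CPM in any group. Their counting intervals overlapped between most groups, so that differences of the size seen at unc-54 were mostly not detectable at this depth.

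UNC-89, an obscurin homolog, sits at the M-line, where thick filaments are joined, and TTN-1 belongs to the titin family of molecular springs. The gene unc-89 (WBGene00006820) lies on chromosome I at 4035702 to 4090885 (plus strand) with 25.9 kb of exon, and ttn-1 (WBGene00006436) on chromosome V at 6120909 to 6202632 (minus strand) with 56.04 kb, counted over all annotated transcripts. Reads at unc-89 numbered 201, 237, 999 and 295, or 12.3 CPM (10.6 to 14.1), 10.4 (9.12 to 11.8), 14.98 (14.1 to 15.9) and 13.5 (12.02 to 15.2). The intervals of both mutant groups lay above that of oma-1-fed controls. A pseudogene on chromosome III (WBGene00021019) had near-equal reads to unc-89, 193, 225, 990 and 296, and whether the 2 share reads was not tested.

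Of all 10 genes ttn-1 differed most between the genotypes. It had 354, 471, 3469 and 1280 reads, and its level was 21.6 CPM (19.4 to 24.01), 20.7 (18.8 to 22.6), 52.03 (50.3 to 53.8) and 58.7 (55.5 to 61.98). Both control groups stood near 21 CPM and both hrde-2 groups above 50, with no overlap of the intervals. Among features inside the span of ttn-1, the potassium channel gene exp-2 on the other strand had 6, 8, 43 and 13 reads. The 5 noncoding RNAs and the piRNA in that span had at most 3 reads each in any group.

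**Figure D1:**
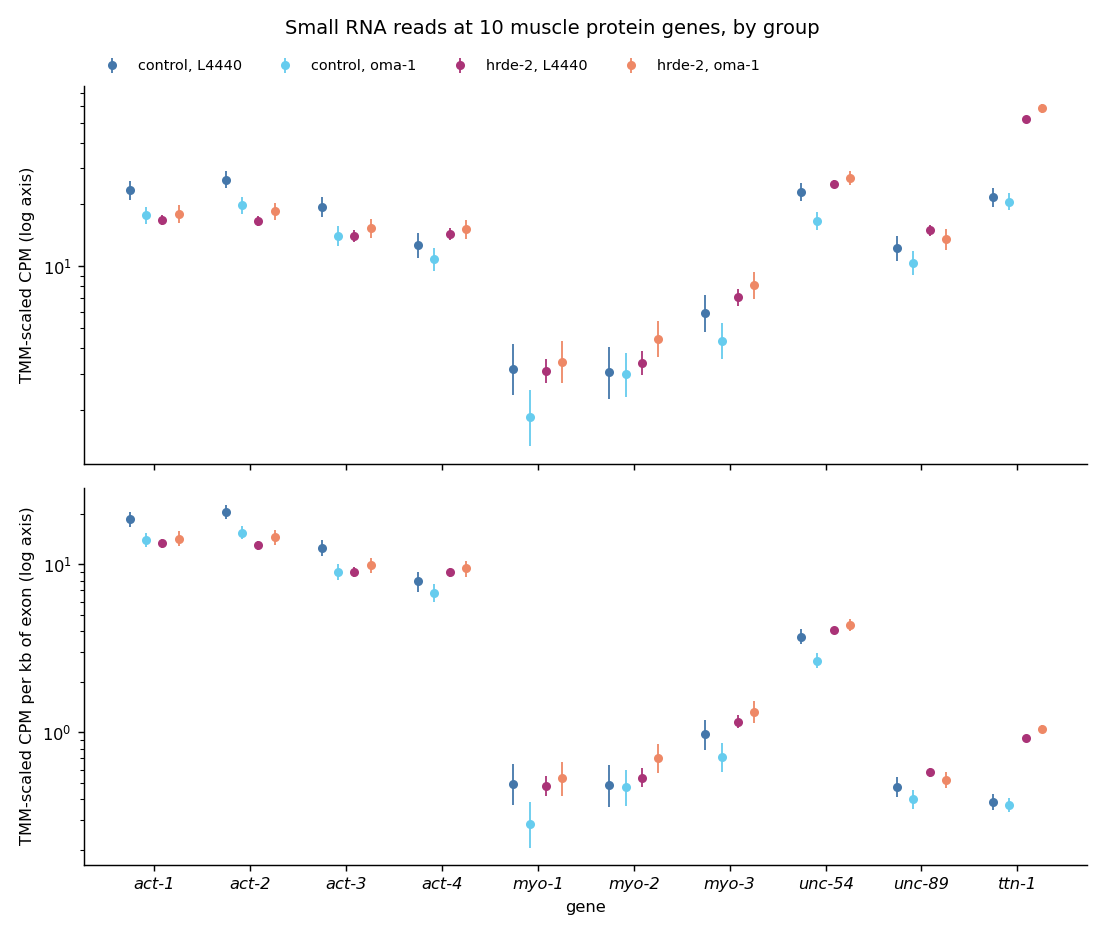
Levels of the 10 genes in the 4 groups, as TMM-scaled CPM (top) and as CPM per kb of exon (bottom), both on log axes; points are the pooled column of a group and bars are 95% Poisson intervals for counting error. Control and hrde-2 groups are far apart at ttn-1, the actins lead per kb, and myo-1 and myo-2 are the lowest in CPM.

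Set against exon length, the order in L4440-fed controls was act-2 at 20.6 CPM per kb, act-1 at 18.5, act-3 at 12.5, act-4 at 7.90, unc-54 at 3.71, myo-3 at 0.971, myo-1 at 0.492, myo-2 at 0.483, unc-89 at 0.474 and ttn-1 at 0.386. Neighbours overlapped in their intervals for act-2 with act-1, and from myo-1 down to ttn-1. The protein-coding genes with a read had a median of 0.336 CPM per kb in that group, and 98.8% of 19617 protein-coding genes stood below act-2 against 58.4% below ttn-1. In hrde-2 the place of ttn-1 changed: at 0.928 CPM per kb on L4440 and 1.05 on oma-1 dsRNA it stood above unc-89, myo-1 and myo-2, whose levels per kb were 0.481 to 0.702, with no overlap of its interval with the next gene. In the same groups act-3 and act-4 overlapped, at 9.03 and 8.98 CPM per kb on L4440.

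Ratios between genes within 1 library do not depend on the scaling. For several of them no difference between groups was detectable. The ratio of unc-54 to myo-3 reads, the 2 heavy chains of body wall muscle, was 3.89 (3.10 to 4.91), 3.82 (3.05 to 4.81), 3.56 (3.21 to 3.95) and 3.32 (2.80 to 3.95), and all 4 intervals overlapped. The body wall myosins unc-54 and myo-3 held 4.65, 4.34, 4.95 and 4.45 reads for each read of the pharyngeal myo-1 and myo-2, again with overlapping intervals. Reads at unc-89 stood to those at unc-54 as 0.533, 0.627, 0.596 and 0.502, with intervals that reach from 0.435 to 0.739. All 4 intervals overlapped here too. The ratio of myo-2 to myo-1 ran from 0.962 (0.639 to 1.45) in L4440-fed controls to 1.62 (1.09 to 2.44) in oma-1-fed controls, also with overlap.

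Other ratios separated the genotypes on both foods. The reads of the 4 actins were 2.33 (2.11 to 2.57) and 2.42 (2.20 to 2.67) times those of the 4 myosins in control, and 1.60 (1.52 to 1.68) and 1.56 (1.44 to 1.69) times in hrde-2. Within the actins, act-4 reads stood to the sum of act-1, act-2 and act-3 as 0.183 (0.157 to 0.212) and 0.210 (0.182 to 0.241) in control and as 0.303 (0.281 to 0.325) and 0.292 (0.257 to 0.330) in hrde-2. Neither ratio overlapped between genotypes, on the same or on the other food. The shift was thus towards myosin over actin, and towards act-4 over the cluster on chromosome V, in both hrde-2 columns. How often the ratios of other gene pairs separate the genotypes in this way was not measured.

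At the giant proteins the separation was wider. The ratio of ttn-1 to unc-89 was 1.76 (1.48 to 2.10) and 1.99 (1.70 to 2.33) in control, and 3.47 (3.24 to 3.73) and 4.34 (3.82 to 4.94) in hrde-2. Taken to unc-54, ttn-1 had 0.939 (0.810 to 1.09) and 1.25 (1.09 to 1.43) times its reads in control and 2.07 (1.95 to 2.19) and 2.18 (1.97 to 2.40) times in hrde-2. As ttn-1 to the other 9 genes together the ratio was 0.167 (0.149 to 0.187), 0.210 (0.190 to 0.232), 0.450 (0.432 to 0.469) and 0.475 (0.444 to 0.508). Food also separated some of these ratios: ttn-1 to the other 9 genes did not overlap between the control groups, nor ttn-1 to unc-89 between the mutant groups. Each of these comparisons is between pooled columns, and the spread between samples is unknown.

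**Figure D2:**
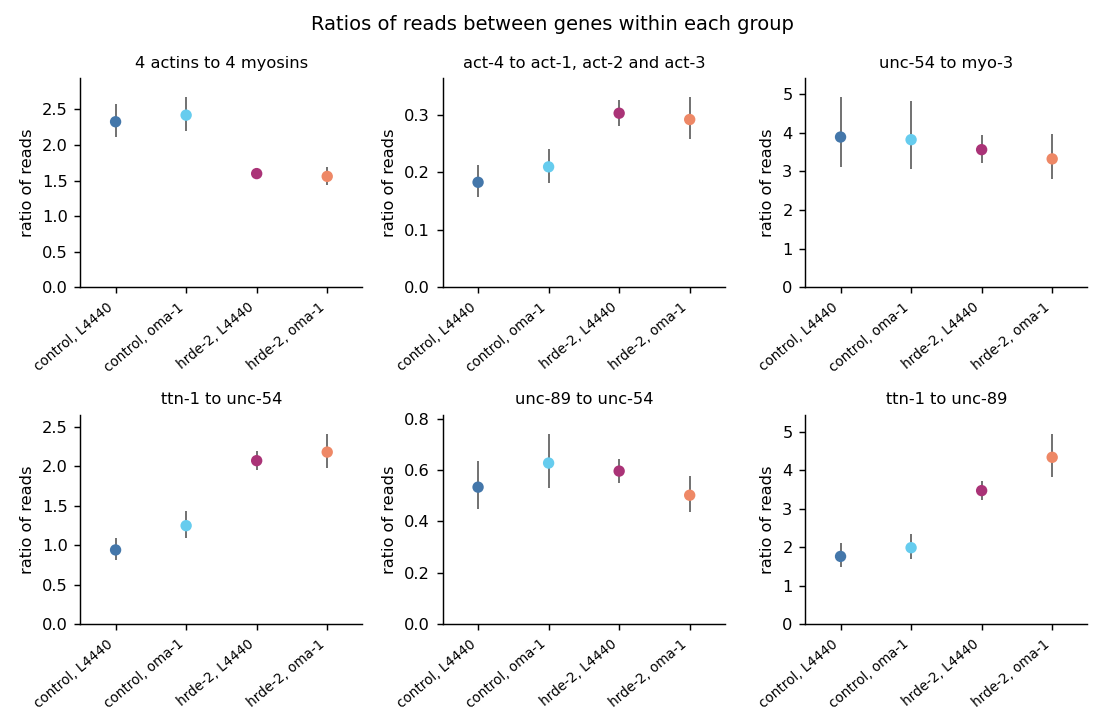
Ratios of reads between genes within each of the 4 groups, each panel on a linear axis from 0, with exact 95% intervals for counting error. The ratios of unc-54 to myo-3 and of unc-89 to unc-54 overlap over all groups, while those of ttn-1 to unc-54, ttn-1 to unc-89, act-4 to the other actins and actins to myosins separate control from hrde-2.

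The genotype comparison asks which endogenous small RNA targets differ in animals with hrde-2(gg517), on each food. On L4440, 8 of the 10 genes reached 5 CPM, and 1 of them, ttn-1, was 2-fold or more above the median gene and 0 were 2-fold or more below it. Of the 1333 protein-coding genes compared, 18.3% were that far above the median gene and 12.7% that far below. Under TMM, ttn-1 in mutants stood to ttn-1 in controls as 2.40 (2.15 to 2.69), a log2 difference of 1.27, which is 3.08 (2.77 to 3.45) times the ratio of the median gene and 1.62 above it on the log2 scale. That put ttn-1 above 86.9% of the protein-coding genes compared, with 173 genes above it, so that its difference was large among the 10 but not among all genes.

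For the other genes the log2 difference from the median gene on L4440 was 0.65 at unc-89, 0.61 at myo-3, 0.54 at act-4, 0.51 at myo-2, 0.49 at unc-54, 0.33 at myo-1, −0.11 at act-1 and at act-3, and −0.31 at act-2. Compared at 10 CPM, act-1 and act-3 turned to 0.0039 and 0.013. The median over the 10 was 0.50. On the TMM scale itself, act-1, act-2 and act-3 together had a ratio of 0.686 (0.641 to 0.735) and the 4 myosins together a log2 difference of 0.14. The actin ratio below 1 holds for that scale only, since act-1 to act-3 were higher in hrde-2 under library totals (0.93, 0.73 and 0.93 on the log2 scale).

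On oma-1 dsRNA, 2 of 8 genes that reached 5 CPM, ttn-1 and myo-3, were 2-fold or more above the median gene and 0 that far below, against 19.7% above and 18.6% below among 1327 protein-coding genes. At ttn-1 the ratio of hrde-2 to control was 2.84 (2.55 to 3.16), or 3.42 (3.08 to 3.81) times that of the median gene, a log2 distance of 1.78. At myo-3 the ratio was 1.87 (1.45 to 2.41), 1.17 from the median gene on the log2 scale, and unc-54 fell just short at 0.97. The pharyngeal myo-1 lay 1.16 above the median gene and myo-2 0.84, both at too few reads to be counted. The count ran from 1 to 3 over the other settings, with ttn-1 in each: it was ttn-1 alone under library totals or the authors' factors, ttn-1 with unc-54 and act-4 when compared at 10 CPM, with myo-1 and myo-3 at 2 CPM, and with myo-3 and unc-54 from the median over all features.

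The remaining values on oma-1 dsRNA were 0.76 at act-4, 0.65 at unc-89, 0.40 at act-3, 0.29 at act-1 and 0.17 at act-2, and the median over the 10 was 0.80. All 10 lay above the median gene here, although act-2 turned to −0.05 under library totals. On both foods act-1, act-2 and act-3 were the lowest of the 10 and ttn-1 the highest. The comparisons on the 2 foods share no column.

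**Figure D3:**
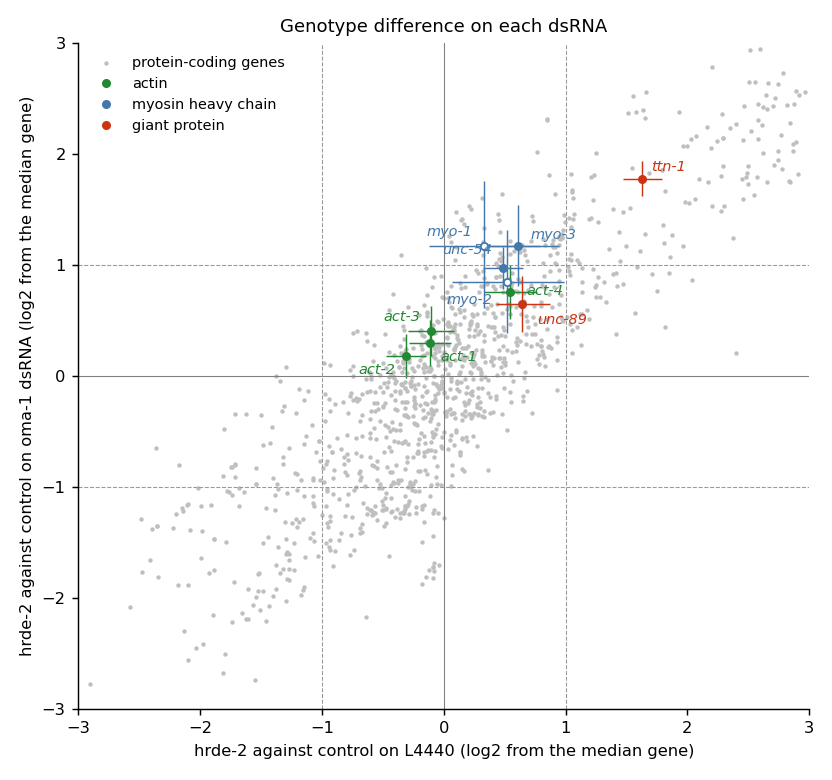
Log2 difference of hrde-2 against control on L4440 (horizontal) and on oma-1 dsRNA (vertical), both from the median gene, with protein-coding genes in grey and 95% counting intervals on the 10 genes; open symbols did not reach 5 CPM, and dashed lines mark 2-fold. Axes stop at 3 log2 units, so that 1128 of the 1211 genes compared on both foods are drawn; ttn-1 lies past both dashed lines and act-1, act-2 and act-3 lie nearest to 0.

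One fit that adds the effects of genotype and dsRNA, and takes its spread from what the sum leaves over, allowed a test of the genotype effect averaged over foods. Only ttn-1 of the 10 genes passed, with a log2 difference of 1.39 and an adjusted p of 0.00228 in edgeR's quasi-likelihood test with Benjamini-Hochberg adjustment over 16329 features, and it was higher in hrde-2 on both foods. Of those features 8.95% were called higher and 9.7% lower. The next smallest adjusted p, 0.149, was at myo-3 (log2 difference 0.57). The other 8 genes had log2 differences of −0.39 at act-2 to 0.41 at unc-54 and adjusted p-values of 0.308 to 0.782, all from the same edgeR fit. This fit has 1 residual degree of freedom and treats the foods as repeats of the genotype comparison. Its calls follow the scaling, with 9 of the 10 genes called higher under library totals, where 62.8% of all features were, and 7 under the authors' factors, where 29.2% were, ttn-1 among them each time.

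Genes above 15 kb of exon had a higher median than shorter genes in the genotype comparison, which was not tested. Among protein-coding genes compared on L4440, the median log2 difference from the median gene was −0.09 over 363 genes of up to 1 kb of exon, −0.02 over 355 genes of 1 to 2 kb and over 353 genes of 2 to 4 kb, 0.05 over 195 genes of 4 to 8 kb, 0.09 over 54 genes of 8 to 15 kb and 0.64 over 13 genes above 15 kb. On oma-1 dsRNA the same classes had −0.10, −0.28, 0.02, 0.13, 0.25 and 0.57. Calls past 2-fold higher did not follow that order, with 79 of the 355 genes of 1 to 2 kb and 2 of the 54 of 8 to 15 kb on L4440, and pks-1 and unc-68, both above 15 kb, lay below the median gene on both foods. The giant proteins belong to the last class, in which ttn-1 was the highest gene on both foods and unc-89, at 0.65, lay near the class median on both. The myosins, at 6.10 to 6.46 kb, lay above the median of their class. The part of length in these values was not tested. Other genes above 15 kb past 2-fold on L4440, named after their values were seen, were anc-1, a nuclear anchorage gene, with 2100, 2982, 13629 and 4542 reads and a log2 distance of 1.03, and cpna-2, a copine-domain gene, with 77, 96, 498 and 158 reads and 1.02. The thick filament gene unc-22, which encodes the giant kinase twitchin, stood at 0.32 on L4440 and 0.95 on oma-1 dsRNA.

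**Figure D4:**
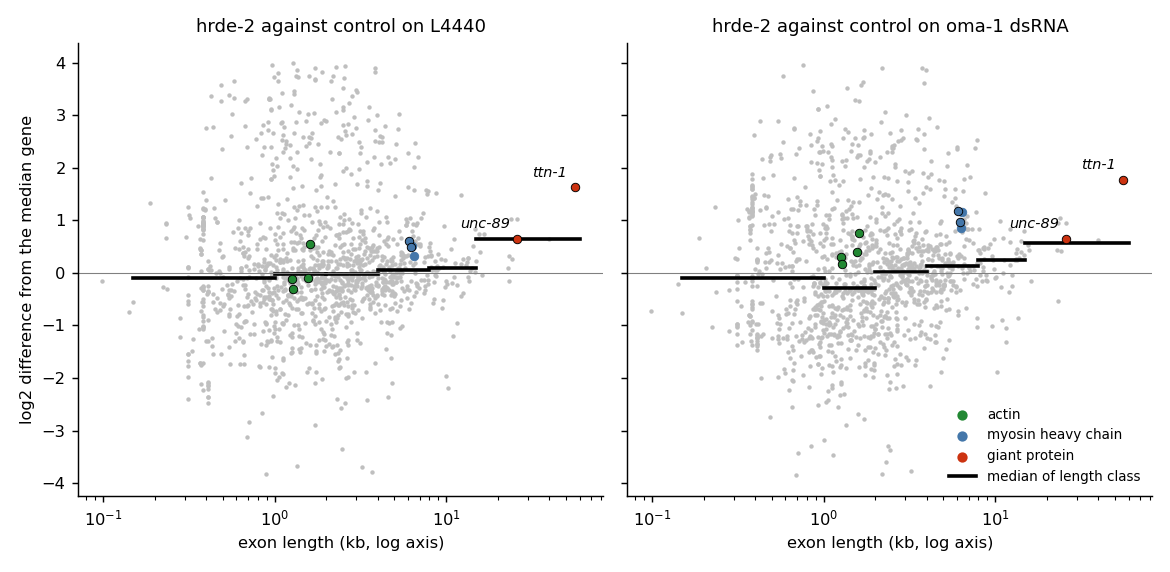
Log2 difference of hrde-2 against control from the median gene, on L4440 (left) and oma-1 dsRNA (right), against exon length in kb on a log axis, with protein-coding genes in grey, black bars for the median of 6 length classes and the 10 genes in colour. Differences are drawn up to 4 log2 units (1312 of 1333 and 1303 of 1327 genes); ttn-1 is the highest of the genes above 15 kb in both panels.

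The dsRNA comparison asks which small RNAs change when animals eat oma-1 dsRNA in place of L4440. In control animals 0 of the 8 genes at 5 CPM or more were 2-fold from the median gene, as were few genes at all (0.566% higher and 0.243% lower of 1236). All 10 nevertheless lay below the median gene, whose own difference was 0.04 on the log2 scale. At act-4, unc-89, ttn-1 and myo-2 the counting interval of the distance from the median gene included 0. The distance was −0.82 at myo-1, −0.51 at unc-54 and at act-3, −0.48 at myo-3, −0.45 at act-2, −0.44 at act-1, −0.28 at unc-89, −0.27 at act-4, −0.10 at ttn-1 and −0.07 at myo-2, with a median of −0.45. As ratios on the TMM scale, the 4 actins together stood at 0.761 (0.706 to 0.821), the 4 myosins at 0.732 (0.651 to 0.822) and the giant proteins at 0.916 (0.819 to 1.03).

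In hrde-2 mutants the same comparison gave smaller values, and 0 of 8 genes were 2-fold from the median gene, against 1.7% higher and 1.61% lower among 1118 genes. The ratios were 1.08 (1.02 to 1.15) for the actins together, 1.11 (1.03 to 1.20) for the myosins and 1.08 (1.02 to 1.14) for the giant proteins. From the median gene the 10 genes ran from −0.18 at unc-89 to 0.35 at myo-2, with a median of 0.10. Under library totals, where the median gene itself was at −0.33, 9 of the 10 still lay above it. The additive fit called 0 of the 10 genes for the dsRNA effect averaged over genotypes. The smallest unadjusted p among them was 0.357, so that 0 passed an unadjusted 0.05 as well, in edgeR's quasi-likelihood test. DESeq2 also called 0. Of 16329 features, 0.098% were called higher and 0.0796% lower.

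Taking the difference of the 2 responses, hrde-2 minus control, all 10 genes lay above the median gene, by 0.08 at unc-89 to 0.92 at myo-1, with a median of 0.53. None of the 8 at 5 CPM or more reached 2-fold, against 5.11% of 1449 protein-coding genes above and 3.73% below. For unc-54 the response in hrde-2 was 1.48 (1.25 to 1.75) times that in control relative to the median gene, and for the sum of act-1, act-2 and act-3 it was 1.46 (1.31 to 1.62). At unc-89 it was 1.06 (0.843 to 1.33), at act-4 1.22 (0.979 to 1.53) and at myo-2 1.33 (0.858 to 2.05), so that no difference of response was detectable there at this depth. With 1 pooled column a group, the difference of responses could not be tested against the spread between samples. The response in control, the genotype comparison on oma-1 dsRNA and this difference all use the column of oma-1-fed controls. That all 10 genes lay on 1 side of the median gene in each of them is therefore not a set of separate results.

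**Figure D5:**
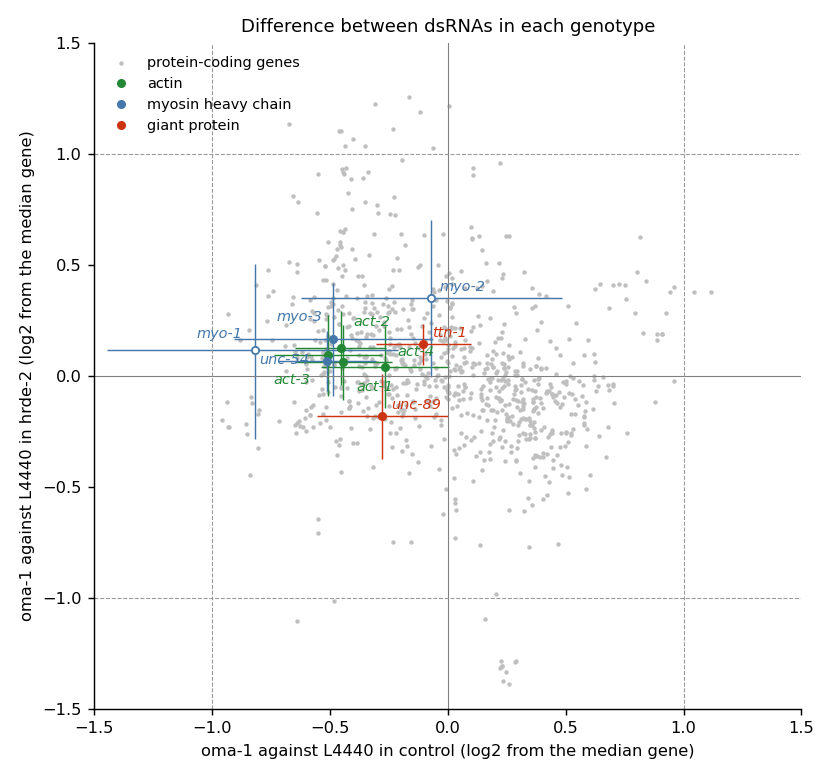
Log2 difference of oma-1 dsRNA against L4440 in control (horizontal) and in hrde-2 (vertical), both from the median gene, with protein-coding genes in grey and 95% counting intervals on the 10 genes; open symbols did not reach 5 CPM, and dashed lines mark 2-fold. Of 905 genes compared in both genotypes, 903 lie within the axes; all 10 genes lie left of 0 and, apart from unc-89, above it.

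Other muscle genes were taken from 4 lists of 45 genes: partners of the thick and the thin filament, dense bodies with attachments, and excitation with calcium handling. Most had few reads, and 10 reached 5 CPM on L4440. Of these, 1 was 2-fold above the median gene in hrde-2 and 0 below, against the 18.3% and 12.7% given above. That gene was unc-60, which encodes the actin-severing protein cofilin, with 58, 65, 526 and 267 reads and a log2 distance of 1.51. On oma-1 dsRNA, 2 of 9 were above, unc-60 at 2.37 and the dystrobrevin gene dyb-1 at 1.41, and 1 below, the dystrophin gene dys-1 at −1.32 with 295, 527, 480 and 167 reads. Among 1327 protein-coding genes 19.7% were that far above and 18.6% that far below. On L4440 dys-1 lay at −0.96, short of 2-fold. The reads of dyb-1, 9324, 9810, 32639 and 20638, were near-equal to those of another feature.

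Among the partners of the thick filament, unc-15, the paramyosin gene, was itself the median gene on L4440 and lay at 0.70 on oma-1 dsRNA. Of the thin filament, the tropomyosin gene lev-11 had 85, 83, 449 and 96 reads and lay at 0.73 on L4440. Between dsRNAs lev-11 lay at −0.55 in control and −0.64 in hrde-2. At the attachments, unc-52, which encodes perlecan of the basement membrane, stood at 0.52 on L4440 and 0.60 on oma-1 dsRNA, and alp-1, a gene for a LIM-domain protein of the dense bodies, at 0.03 and 0.28. Over the 45 genes, 29 lay above the median gene on L4440 and 34 on oma-1 dsRNA, with medians of 0.14 and 0.33 that include genes of few reads. Between dsRNAs in control animals 0 of 9 were 2-fold from the median gene, against 0.566% higher and 0.243% lower of 1236 protein-coding genes. Of the 45 genes 14 lay above it. The furthest of the excitation and calcium genes there was sca-1, at −0.58 with 181, 173, 607 and 184 reads. In the difference of responses 1 of 10, dyb-1 at 1.35, was 2-fold above the median gene and 0 below. Among 1449 protein-coding genes the shares were 5.11% and 3.73%.

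Non-muscle relatives were read alongside. Of 15 non-muscle actin and myosin genes, 4 reached 5 CPM on each food, and 0 of these 4 were 2-fold from the median gene. For protein-coding genes the shares with oma-1 dsRNA as food were 19.7% above and 18.6% below. With L4440 as food they were 18.3% and 12.7%. A count of 0 among 4 genes is too small to set them apart from these shares. The cytoplasmic myosin gene nmy-1 had 197, 203, 1011 and 276 reads, 0.69 and 0.78 from the median gene on the 2 foods. The unconventional myosin gene hum-2 stood at 0.60 on L4440, and the intestinal actin gene act-5 at 0.41 on oma-1 dsRNA. The reads of hum-2 were near-equal to those of another feature. The gene of a myosin of the early embryo and germline, nmy-2, lay at −0.44 on L4440 and, between dsRNAs in control, at −0.53. Among the genes under 5 CPM, named after their values were seen, mlc-7 stood at 2.58 and 1.41 on the 2 foods, with 4, 15, 80 and 32 reads, and spe-15 at 1.30 and 1.46, with 15, 19, 118 and 42 reads.

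Markers of other cell types were read in the same way. As summed levels, the myosins, each of the muscle lists and the non-muscle actin and myosin genes were lowest in oma-1-fed controls. The margin was small for dense bodies with attachments, at 33.7, 30.8, 31.5 and 31.8 CPM. Nearly all of the excitation and calcium sum lay at dyb-1. Sperm markers were also lowest in oma-1-fed controls: their summed level was 59.05, 39.6, 87.5 and 77.1 CPM over 16 genes, of which 1 (spe-38) had a group at 0. On oma-1 dsRNA 8 of the 9 sperm markers that reached 5 CPM were 2-fold above the median gene in hrde-2, with a median of 1.23. Among 1327 protein-coding genes 19.7% were that far above and 18.6% that far below. In control animals the median of the sperm markers between dsRNAs was −0.55 over 8 genes. The major sperm protein genes, 10 of the 16, have near-identical sequences, so that their reads are not separate results. Intestine markers summed to 1182, 1210.4, 834.8 and 1114 CPM over 12 genes and cuticle markers to 73.8, 76.6, 55.8 and 72.2 over 12. Between dsRNAs in control these lists had medians of −0.02 over 8 and 0.08 over 7 genes. Nearly all of the intestine sum lay at vit-1 to vit-6, so that it does not stand for the whole list. Between genotypes on L4440 these vit genes lay −0.58 to −0.02 from the median gene. In that comparison 4 of the 12 intestine markers lay above it, asp-1 at 0.997 and, under 5 CPM, ges-1, ifb-2 and mtl-2. Oogenic germline markers, 13 genes with oma-1 among them, summed to 86.1, 550.1, 63.6 and 305.8 CPM, or 83.9, 72.5, 61.3 and 65.1 without the fed target oma-1. Between dsRNAs in control their median was −0.14 over 6 genes, oma-1 included. With oma-1 left out, the middle gene there was puf-5, at −0.28. On L4440 between genotypes the median was −0.03 over 6 genes, oma-1 not among them. Of 12 neuron markers, which summed to 12425, 17752, 12575 and 11671 CPM with nearly all of it at unc-104, whose span holds 2 structural RNAs and whose reads were near-equal to those of 6 other features, 2 reached 5 CPM and had a median of 0.78 between dsRNAs in control. The part of these other tissues in the values of the muscle genes was not tested.

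Over the 4 groups, some genes had profiles close to those of the summed families, measured as the distance of centred log2 CPM among 699 protein-coding genes at 5 CPM or more in every group. For the actins the nearest were pygl-1, a glycogen phosphorylase gene, at 0.0641, eef-2, the gene of a translation elongation factor, at 0.0651 and lrp-1 at 0.0761. Closest to the myosins were 2 identifiers that the annotation names his-29, a histone gene, on chromosome IV, at 0.0744 and 0.0823, and rla-0, a ribosomal protein gene, at 0.107. The giant proteins had R10E8.6 on chromosome V at 0.0922, with 629, 841, 5538 and 1850 reads, followed at a distance by asp-1, an aspartyl protease gene, at 0.285 and pad-1 at 0.307. With 4 points and as many groups, likeness of this kind is a description.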

How the data were processed

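Small RNA was sequenced in 12 samples of 4 groups, and the authors deposited 1 pooled column of raw read counts per group and gene, per the file headers. HTSeq 0.6.1 is named in the submitters' processing notes. Nothing used here states the aligner, build, annotation, strand setting or merging of samples. A second block holds a normalized signal, which the authors deposited as the count divided by 1 constant per column (1, 1.34, 2.33 and 0.87). Reads in rows that name no gene, 59.9 to 65.3% of those listed, stayed out of library sizes. Positions, names and exon lengths come from the Ensembl release 115 annotation of WBcel235, which matched 46364 of 46726 identifiers. The identifier given with myo-1 was not in the table, and the annotation's myo-1 (WBGene00002348) was used.

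Features passing filterByExpr (16329, with a minimum count of 10) gave TMM factors in edgeR 4.0.16 (R 4.3.3). Log2 differences used a prior count of 0.5. Ratios carry exact conditional binomial intervals, levels exact Poisson intervals (scipy 1.17.1). A call is a log2 distance of 1 from the median protein-coding gene. The additive fit used glmQLFit (robust) and glmQLFTest, with a common dispersion of 0.0305 shared almost wholly across features. On simulated counts for it, 16329 features with 100 changed by each fold, 46% of 2-fold and 97% of 4-fold changes of genotype were recovered. The changed features were drawn only from those with more reads. Simulated counts varied at the fitted common dispersion, with no departure from additivity. These rates therefore do not carry over to all features of the data. DESeq2 1.42.0 was an alternative. All 10 genes are named in every comparison. Of each muscle list, genes are named from the compared genes furthest from the median gene, at most 2 per comparison. Not every value of these genes is printed. Of each summed family the 3 nearest profiles are named. The members and lists were chosen with earlier results of these data known. Where p-values are given, they measure only the spread between pooled columns. No sequence is shown, since none was given with the files used here.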

Additional observations from a re-analysis of the deposited data

Results flagged for a closer look

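For 7 of the 10 genes the difference between dsRNAs from the median gene was below 0 in control and above 0 in hrde-2, with the counting interval of the change in response away from 0. Of 1449 protein-coding genes at 5 CPM or more in any group, 21.5% met the same rule in that direction and 41.2% in either, against 6 of the 8 of these genes that reached 5 CPM. On the log2 scale these were −0.44 and 0.0606 at act-1, −0.45 and 0.12 at act-2, −0.51 and 0.0935 at act-3, −0.82 and 0.11 at myo-1, −0.48 and 0.17 at myo-3, −0.51 and 0.0671 at unc-54, and −0.10 and 0.14 at ttn-1. Whether the genotypes differ in this was not tested, because each value rests on 1 pooled column per group. The division of reads among act-1, act-2 and act-3 is uncertain, so that they do not count as separate results here. The positive values are small, and at act-1, act-2, act-3, myo-1, myo-3 and unc-54 their own counting intervals include 0. At ttn-1 the value in control has a counting interval that includes 0 (0.809 to 1.07 as a ratio to the median gene).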

How the results depend on the processing

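No paired analysis was possible because the table holds 1 pooled column per group and its columns carry no replicate number, and leaving out each replicate was not run for the same reason. Of 454 single values recomputed, 417 moved by less than their counting interval, 37 by more, and no called value changed sign. The count of genes past 2-fold on oma-1 dsRNA between genotypes went from 2 to 1 under library totals, the authors' factors and a call without the median gene, where myo-3 fell short (0.94, 0.98 and 0.90), and to 3 at 2 CPM, at 10 CPM and from the median over all features, with ttn-1 past it each time. At 10 CPM unc-54 reached 1.22 and act-4 1.003, while myo-3 was not compared. The genotype effect of the additive fit was called at 9 genes under library totals and 7 under the authors' factors, in place of 1. Its features called went from 3045 to 10467 under library totals, 5241 under the authors' factors and 1066 in DESeq2. For the dsRNA effect 29 became 15 under library totals and 5 in DESeq2. Small values changed sign at act-2 on oma-1 dsRNA (−0.10 on the plain TMM scale, −0.05 under library totals, −0.01 under the authors' factors), myo-1 on L4440 (−0.03, plain TMM scale) and act-4 between dsRNAs in hrde-2 (−0.02, median over all features). The log2 effect at ttn-1 was 1.39 under TMM and up to 2.60 under library totals. Depth limits myo-1 and myo-2, with 42 to 227 reads a group.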
